A study of Mus musculus with 12 samples.

Results

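IFITM genes (interferon-induced transmembrane genes) encode small antiviral membrane proteins, and 4 of them were examined here: Ifitm1, Ifitm2, Ifitm3 and Ifitm6. They were chosen by symbol, and all 4 had a row in each of the 2 deposited gene tables, which held 16805 genes for neutrophils and 16954 for monocytes. The study applied RNA-seq to spleen cells of wild-type mice given cryo-thermal therapy (CTT), which freezes and then heats a tumor in place, and of untreated ones. Neutrophils were selected with PE anti-Ly6G from mice bearing a tumor: 3 control libraries had no CTT, and 3 were taken 12 h after it. Monocytes were selected with PE anti-CCR2 from mice 5 days after CTT, either without (n = 3) or with (n = 3) anti-Ly6G treatment, so both monocyte groups had received CTT. The sources used here do not give strain, age, tumor model, mice per library or cell purity.

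The 12 libraries held 30942849 to 35956571 counted reads each. The labels call them biological replicates without saying what a replicate is, and p-values therefore cover only the spread among libraries. In both tables, markers of neutrophils, monocytes, macrophages, B cells and erythroid cells were all detected, and none of the markers listed for these types was at 0 in any library. Among the neutrophil libraries, control replicate 1 stood apart, with erythroid markers summing to 11460 CPM (counts scaled to library size) against 274 to 1893 CPM in the other 5, and 8 cell cycle genes summing to 4172 CPM against 794 to 1132 CPM. The fits of the 4 genes in neutrophils are therefore also given without it.

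IFITM proteins sit in the membranes that enveloped viruses must fuse with, and they hinder that fusion. IFITM1 is found largely at the cell surface, whereas IFITM2 and IFITM3 cycle to endosomes and lysosomes, where they act on viruses that enter by endocytosis. Interferons induce the family through response elements in promoters, and several members are also present in unstimulated immune cells. Ifitm6 is a mouse family member known mainly from macrophages and other myeloid cells.

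The 4 genes lie together on mouse chromosome 7 within 62.1 kb (GRCm38, the build named mm10 in the submitters' processing notes). By RefSeq coordinates Ifitm2 (Entrez gene 80876) spans chr7:140954837-140959686 and Ifitm1 (68713) spans chr7:140967429-140969827. Ifitm3 (66141) spans chr7:141009590-141010744 and Ifitm6 (213002) spans chr7:141015812-141016892. None overlapped another annotated RefSeq gene, and all 4 are protein coding. As relatives, they share sequence. The transcripts of Ifitm2 and Ifitm3 were 84.9% identical over 358 aligned bases, with a longest identical run of 69 bases, and Ifitm1 and Ifitm3 shared a run of 64 bases (GENCODE M21). Ifitm6 was the most distant, with no run over 25 bases in common with another member. A short read inside a shared run cannot be assigned to 1 gene, so the split of reads among Ifitm1, Ifitm2 and Ifitm3 carries that uncertainty.

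All 4 genes matched a RefSeq promoter window (GRCm38.p6) reaching from 250 bases before a transcript start to 50 after it. For Ifitm3 and Ifitm6 that start is the 5′ end of the gene span given above. For Ifitm2 it lies 3725 bases inside the span, and for Ifitm1 647 bases inside, so their windows do not cover the outermost annotated start. The windows of the pair that share most sequence, Ifitm2 and Ifitm3, and of Ifitm6, the gene with the largest change in monocytes, are printed below 5′ to 3′ on the gene's strand, which is the minus strand for all 3. Capitals mark the core of the interferon-stimulated response element, in which the fifth and the sixth base are free, searched on both strands, and the core promoter motif TATAAA, searched on the gene's strand only.
Ifitm2, chr7:140955912-140956211: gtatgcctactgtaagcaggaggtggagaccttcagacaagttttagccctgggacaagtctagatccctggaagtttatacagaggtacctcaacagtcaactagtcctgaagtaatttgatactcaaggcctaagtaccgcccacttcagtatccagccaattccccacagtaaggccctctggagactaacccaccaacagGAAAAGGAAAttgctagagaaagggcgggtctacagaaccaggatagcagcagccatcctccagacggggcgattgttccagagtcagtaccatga
Ifitm3, chr7:141010695-141010994: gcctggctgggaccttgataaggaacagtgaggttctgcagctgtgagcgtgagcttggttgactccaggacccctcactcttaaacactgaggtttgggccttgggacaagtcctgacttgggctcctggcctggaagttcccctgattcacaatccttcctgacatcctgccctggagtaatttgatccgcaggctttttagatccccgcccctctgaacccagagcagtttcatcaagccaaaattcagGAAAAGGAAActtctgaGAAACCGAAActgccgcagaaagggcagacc
Ifitm6, chr7:141016843-141017142: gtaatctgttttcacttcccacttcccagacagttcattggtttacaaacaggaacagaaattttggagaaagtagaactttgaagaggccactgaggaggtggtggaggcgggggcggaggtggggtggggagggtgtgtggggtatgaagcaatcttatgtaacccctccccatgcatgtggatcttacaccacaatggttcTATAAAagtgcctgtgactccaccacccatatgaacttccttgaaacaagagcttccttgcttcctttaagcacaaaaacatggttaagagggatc
In the form GAAAAGGAAA this core stood in both Ifitm2, beginning 46 bases before that inner start, and Ifitm3, beginning at base 3 after its start. Ifitm3 held a second core, GAAACCGAAA, beginning at base 20 after the start. The letters were not in the windows of Ifitm6 and Ifitm1. Over all 32851 RefSeq promoter windows, 3.44% held this core, and among the 23 listed interferon-stimulated genes with a window 11 did. TTCNNNGAA, the gamma-activated site, searched on both strands, occurred in Ifitm3, where it overlapped the second core, and in Ifitm6, beginning 10 bases before the start, against 8.3% of all windows. TATAAA occurred in Ifitm6 alone of the 4, beginning 46 bases before the start, against 8.32% of all windows. TTGCNNAA, a C/EBP-type motif searched on both strands, occurred in none of the 4 windows and in 10.8% of all windows. These are matches of letters, and no binding was measured.

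All 4 genes were well expressed in every library. Levels between genes are compared per length, by the authors' deposited FPKM values, which scale fragments to gene length and library size. In control neutrophils the level of Ifitm3 was 230 ± 11.3 FPKM (SD, n = 3 here and below) and that of Ifitm2 was 213 ± 35.4 FPKM, with overlapping values. Ifitm6 followed at 129 ± 27.5 FPKM and Ifitm1 at 85.6 ± 20.2 FPKM, and these neighbours in the order also overlapped, at 102 to 157 and 73.1 to 109 FPKM. In CTT neutrophils Ifitm2 had the highest mean, 340.2 ± 19.9 FPKM, above Ifitm3 at 247 ± 55.3 FPKM without overlap. Ifitm6 stood at 242 ± 66.9 FPKM and overlapped both, since its value of 319 FPKM in CTT replicate 3 lay above the lowest Ifitm2 value of 317 FPKM, and Ifitm1 at 161 ± 18.0 FPKM lay below every Ifitm6 value.

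In CTT monocytes the order by deposited FPKM was Ifitm3 at 314 ± 44.2, Ifitm2 at 195 ± 17.6, Ifitm6 at 120 ± 25.0 and Ifitm1 at 93.1 ± 6.06 FPKM, with no overlap between neighbours. With anti-Ly6G it was Ifitm3 at 629 ± 25.2, Ifitm6 at 487 ± 84.1, Ifitm2 at 412 ± 24.0 and Ifitm1 at 252 ± 42.3 FPKM. There Ifitm6 had passed Ifitm2 in the order of means, with values of 434 to 584 FPKM against 386 to 434 FPKM that nearly touched without overlapping. Among all genes of a library, Ifitm3 ranked 92nd to 279th by FPKM over the 12 libraries, Ifitm2 139th to 307th, Ifitm6 109th to 550th and Ifitm1 201st to 970th. The 2 cell types were taken at different times and selected by different antibodies, and their levels were not tested against each other.

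**Figure D1:**
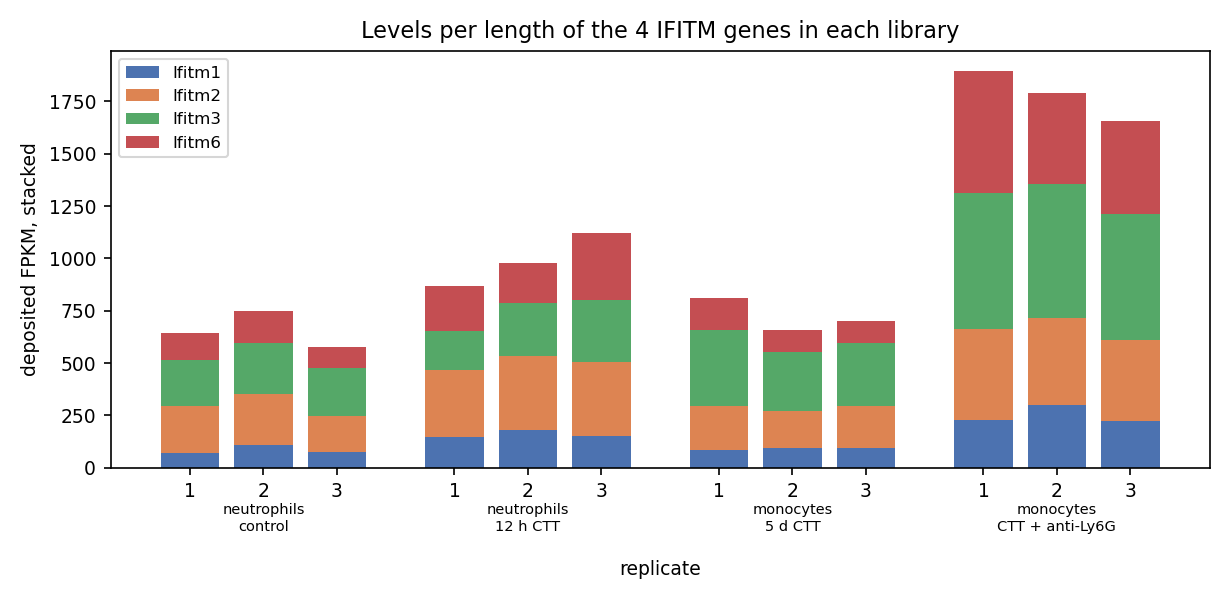
Deposited FPKM of the 4 genes (y axis, stacked) in each of the 12 libraries (x axis, by group and replicate). The stacked sum lies between 578 and 751 FPKM in control neutrophils, 869 and 1122 in CTT neutrophils, 658 and 809 in CTT monocytes, and 1656 and 1897 with anti-Ly6G, where Ifitm6 takes the largest share it has in the monocyte libraries.

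In neutrophils, the comparison of CTT with control addresses how the therapy alters these cells within 12 h. Ifitm1, Ifitm2 and Ifitm6 read higher in each of the 3 CTT libraries than in every control, with fitted folds of 1.67 to 1.97, while Ifitm3 overlapped between the groups. None of the 4 passed an adjusted p of 0.05 in the edgeR quasi-likelihood test over all 13058 tested genes (0 of 4), where 0.567% of genes were called higher and 0% lower. At an unadjusted p below 0.05 edgeR gave 3 of the 4 as higher, against 8.28% of all tested genes. DESeq2 called 3 higher after adjustment, against 3.49% of all genes, and limma-voom called 0, against 0.528%. Without control replicate 1 edgeR called 2, against 1.93%. Groups without overlap, higher after CTT, were found in 13.6% of all tested genes.

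Ifitm1, the cell-surface member, read 62.9, 91.0 and 63.2 CPM in control replicates 1, 2 and 3 and 127, 159 and 139 CPM in the CTT replicates. The lowest CTT library was above the highest control library. The log2 fold change was 0.97 (SE 0.18, adjusted p in edgeR = 0.092), from a mean of 72.4 ± 16.1 to 142 ± 16.1 CPM. Without control replicate 1 it was 0.88 and passed the test (adjusted p in edgeR = 0.0402).

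Ifitm2, an endosomal member, read 158, 168 and 121 CPM in the controls and 226, 256 and 263 CPM after CTT. Its groups did not overlap either. The log2 fold change was 0.74 (SE 0.15, adjusted p in edgeR = 0.121), and without control replicate 1 it was 0.78 and passed (adjusted p in edgeR = 0.0402). Control replicate 3 was the lowest library for this gene, so the standing-apart library was not the one that set its low end.

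Ifitm3, the other endosomal member and the one best known for limiting influenza virus in mice, read 142, 152 and 144 CPM in the control libraries. After CTT it read 122, 165 and 204 CPM, with 1 library below, 1 just above and 1 well above the control range. The log2 fold change was 0.17 (SE 0.19, adjusted p in edgeR = 0.671). It was 0.16 without control replicate 1 (adjusted p in edgeR = 0.752). Without CTT replicate 3 it was −0.02, so its sign rested on that library.

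Ifitm6, the myeloid member, read 68.9, 82.2 and 54.1 CPM in the controls and 116, 107 and 181 CPM after CTT. All CTT values were higher, and CTT replicate 3 was the highest, as it was for Ifitm2 and Ifitm3. The log2 fold change was 0.98 (SE 0.25, adjusted p in edgeR = 0.192). Without control replicate 1 it was 0.99 and again did not pass (adjusted p in edgeR = 0.111).

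**Figure D2:**
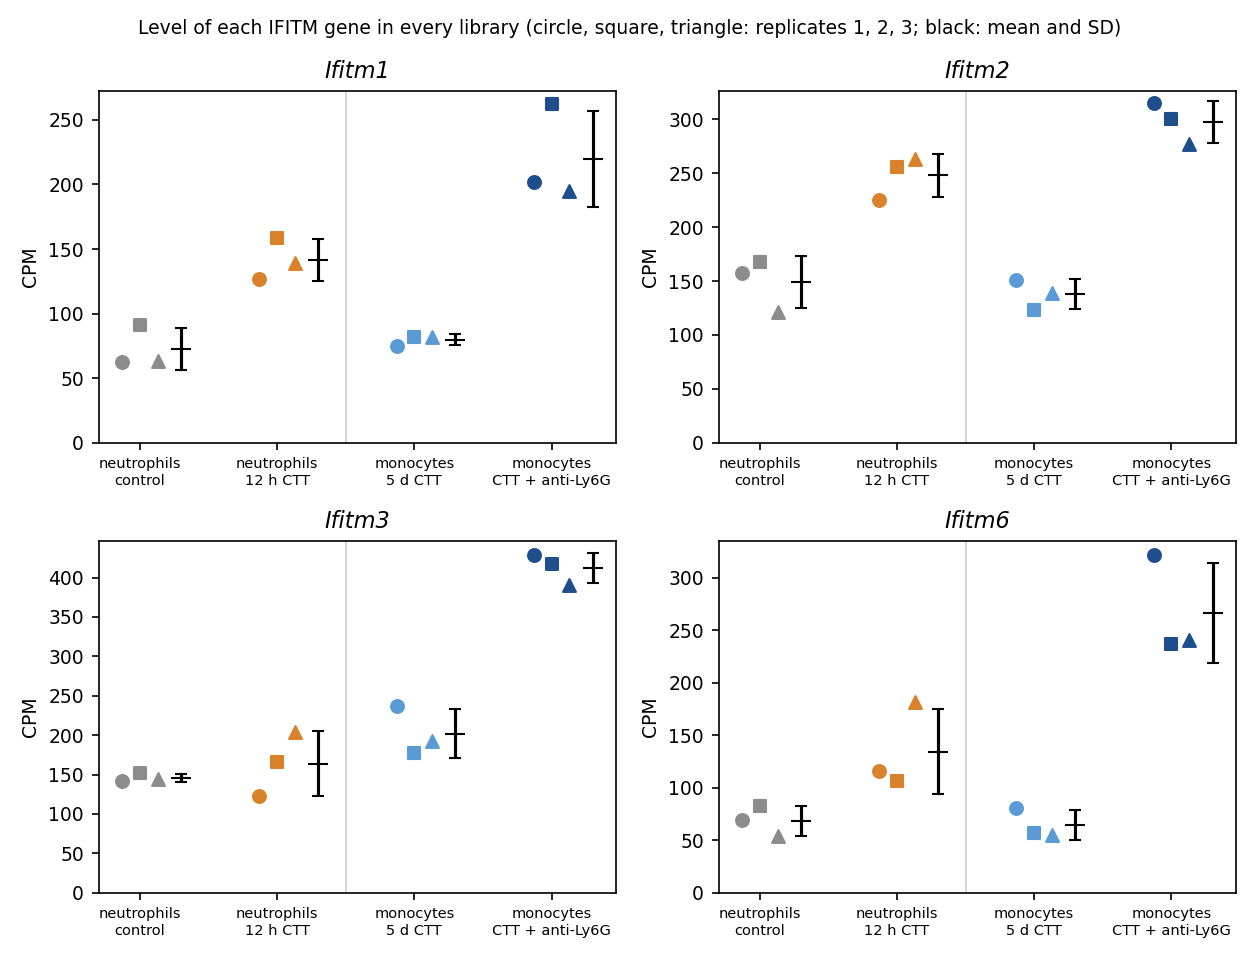
TMM-scaled CPM of each gene (y axis, from 0) in every library, by group (x axis). Black marks give the mean and SD of 3 libraries. For Ifitm1, Ifitm2 and Ifitm6 the CTT neutrophil libraries lie above all control libraries, for Ifitm3 they straddle them, and in monocytes every anti-Ly6G library lies above every CTT library for all 4 genes.

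The proportions of the members in neutrophils were set against Ifitm3. Per length, the ratio of Ifitm2 to Ifitm3 was 0.764 to 1.01 in control and 1.17 to 1.68 in CTT libraries. The ratio of Ifitm1 to Ifitm3 was 0.329 to 0.45 in control and 0.511 to 0.779 after CTT, and that of Ifitm6 to Ifitm3 was 0.449 to 0.649 and 0.771 to 1.13. All 3 ratios were without overlap, each with a two-sided exact permutation p = 0.1, the smallest that 3 against 3 libraries allow, and an adjusted p = 0.12 over the 6 ratios tested in both cell types. The share of Ifitm3 in the summed FPKM of the 4 genes went from 35.3% ± 3.66 to 24.7% ± 2.59.

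Neutrophil markers separated the same libraries. The 15 neutrophil markers summed to 4198 to 6168 CPM in control and 7867 to 12980 CPM in CTT libraries, with CTT replicate 3 the highest. Of the 15, 10 were higher without overlap, against 13.6% of all tested genes. At an unadjusted p below 0.05 in edgeR 12 were higher, against 8.28%. The median log2 fold change of the 15 was 0.93, against 0.85 for the 4 IFITM genes. After adjustment 2 rose (0.567% of all tested genes did), Mmp8 (1.94, SE 0.16) and Retnlg (1.69, SE 0.25). DESeq2 called 9, against 3.49% of all genes. Without control replicate 1 edgeR called 4, against 1.93%. It called 0 without any other single library, where it also called 0 genes higher over the whole table. The sums of the 9 monocyte markers overlapped between the groups, at 1747 to 2051 and 1794 to 2998 CPM. Of the 9, 3 were higher and 1 lower without overlap, against 13.6% and 11% of all tested genes. After adjustment in edgeR 1 of the 9 rose, against 0.567%, and their median log2 fold change was 0.394. B cell markers summed to 3224 CPM in control replicate 1 and to 6768 to 8003 CPM in the other 5 libraries. In RNA from bulk cells, a change in the share of a cell type and a change in RNA per cell cannot be told apart, and the part of these markers in the IFITM values was not tested.

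In monocytes, the comparison addresses what anti-Ly6G changes on top of CTT; such antibodies are given to remove neutrophils. In these CCR2-selected libraries Ly6g itself was higher with the antibody, at a mean of 13.6 CPM without it and 56.1 CPM with it, as were most neutrophil markers, so the libraries show no loss of neutrophil transcripts. All 4 IFITM genes rose with the antibody, from 2.04-fold for Ifitm3 to 4.14-fold for Ifitm6. All 4 passed in edgeR over the 13294 tested genes, where 10.2% of genes were called higher and 5.12% lower. Every anti-Ly6G library was above every CTT library for each of the 4, a separation seen in 20.6% of all tested genes. Their log2 fold changes ranked 39th for Ifitm6, 154th for Ifitm1, 302nd for Ifitm2 and 356th for Ifitm3 from the top.

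Ifitm1, at the cell surface, read 74.7, 82.2 and 82.0 CPM in the CTT libraries and 202, 262 and 195 CPM in the anti-Ly6G libraries. The groups were far apart, and anti-Ly6G replicate 2 was the highest. On the log2 scale it rose by 1.47 (SE 0.11, adjusted p in edgeR = 0.000166), from 79.6 ± 4.26 to 219.9 ± 37.0 CPM.

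Ifitm2 read 151, 124 and 139 CPM with CTT alone and 316, 299.9 and 277 CPM with the antibody. The groups did not overlap, and the spread within each was narrow beside the gap. Its log2 fold change was 1.11 (SE 0.09, adjusted p in edgeR = 0.000169), with means of 138 ± 13.9 and 297 ± 19.6 CPM.

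Ifitm3 read 236, 177 and 192 CPM with CTT alone and 428, 417 and 390.4 CPM with the antibody. No anti-Ly6G library came near the range of CTT alone. It rose by 1.03 on the log2 scale (SE 0.10, adjusted p in edgeR = 0.000522), from 202 ± 30.9 to 412 ± 19.5 CPM.

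Ifitm6 read 80.8, 56.7 and 55.5 CPM with CTT alone and 322, 237 and 241 CPM with the antibody. Replicate 1 was the highest library of both groups, and the groups remained far apart. It rose by 2.05 on the log2 scale (SE 0.17, adjusted p in edgeR = 0.000213), with means of 64.3 ± 14.3 and 267 ± 47.9 CPM.

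**Figure D3:**
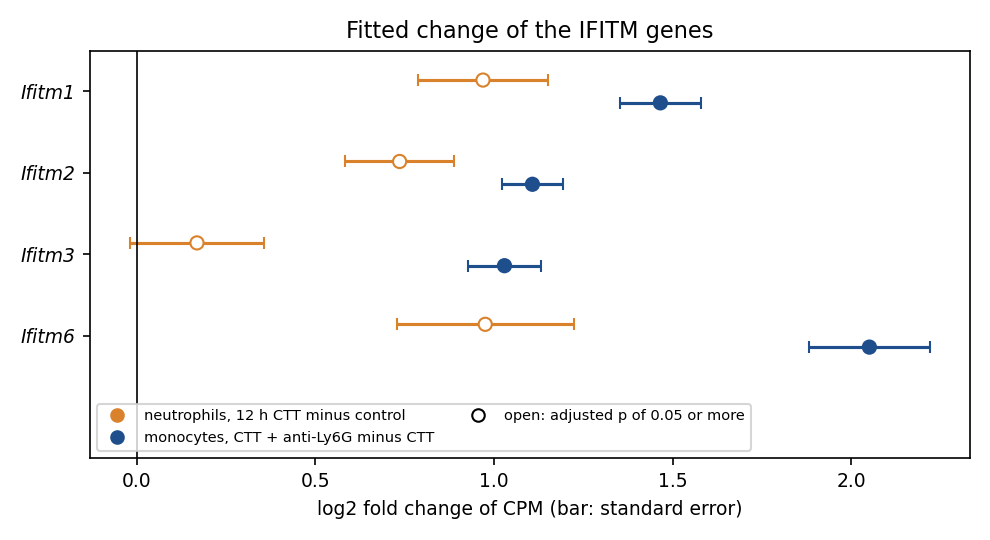
Log2 fold change of CPM (x axis) of each gene (y axis) in the neutrophil comparison (orange) and the monocyte comparison (blue), with bars of 1 standard error. Filled points passed an adjusted p of 0.05. All 4 monocyte points are filled and lie between 1.03 and 2.05, and the 4 open neutrophil points lie between 0.17 and 0.98.

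The same ratios were taken in monocytes. The ratio of Ifitm6 to Ifitm3 per length was 0.345 to 0.409 in CTT and 0.681 to 0.9 in anti-Ly6G libraries, and that of Ifitm1 to Ifitm3 was 0.237 to 0.348 and 0.354 to 0.472 (exact permutation p = 0.1 for both, adjusted p = 0.12). The ratio of Ifitm2 to Ifitm3 overlapped, at 0.581 to 0.657 and 0.643 to 0.669 (exact permutation p = 0.3, adjusted p = 0.3). The share of Ifitm6 in the summed FPKM went from 16.5% ± 1.77 to 27.3% ± 3.29, while that of Ifitm3 went from 43.4% ± 1.36 to 35.4% ± 1.06.

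Marker genes moved with this rise as well. The 15 neutrophil markers summed to 4935 to 6970 CPM with CTT alone and 13760 to 18740 CPM with the antibody. Of these, 13 rose (10.2% of all tested genes did), among them Retnlg (1.89, SE 0.09) and Ly6g (2.04, SE 0.14). The median log2 fold change of the 15 was 1.56, against 1.29 for the 4 IFITM genes. These values describe only the CCR2-selected cells sequenced here, and depletion of neutrophils in the mice was not tested. Of 9 monocyte markers 6 rose and 2 fell, against 10.2% and 5.12% of all tested genes. The 2 became 0 without CTT replicate 3 or any one anti-Ly6G library, fits in which 177 to 318 genes fell over the whole table, against 681. Ccr2 rose by 1.24 (SE 0.14) and Ly6c2, a marker of inflammatory monocytes, by 1.24 (SE 0.20), whereas Csf1r fell by 0.56 on the log2 scale, and the sums overlapped at 3502 to 5666 and 4776 to 5745 CPM. Macrophage markers summed to 9427 to 15770 and 7415 to 8034 CPM. Of 10 such markers 8 fell (5.12% of all tested genes did). That count was 1 without any one of the 3 anti-Ly6G libraries or on log2 of FPKM plus 1 or 0.1. It was 5 without CTT replicate 3. Calls over the whole table dropped in the same fits. The 681 genes that fell became 177, 318 and 281 without anti-Ly6G replicates 1, 2 and 3. They became 322 and 362 on FPKM plus 1 or 0.1, and 278 without CTT replicate 3. Progenitor markers summed to 122 to 217 CPM and 303 to 478 CPM, and B cell markers to 3807 to 5527 and 2944 to 4041 CPM. Of 9 B cell markers 2 fell in edgeR, against 5.12% of all tested genes, and their median log2 fold change was −0.453. DESeq2 called 8 of the 9 lower, where 1204 genes fell over the whole table. The part of these shifts in the IFITM values was not tested.

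Other interferon-stimulated genes were examined as the wider program to which IFITM genes belong. In monocytes 16 of 30 tested genes rose (10.2% of all tested genes did), 0 fell and 14 did not pass, with a median log2 fold change of 0.39 against −0.00 over all tested genes and 1.29 over the 4 IFITM genes. The count of 16 became 6 without CTT replicate 3, 8 without CTT replicate 2 and 10 without anti-Ly6G replicate 2. It was 8 on log2 of FPKM plus 1 or 0.1. Over the whole table the 1354 genes that rose became 706, 875 and 870 without those libraries, in the same order. They became 883 and 917 on FPKM plus 1 or 0.1. DESeq2 also called 0 of the 30 lower, and none was lower at an unadjusted p below 0.05 in edgeR. The genes with the smallest p belonged to the 2′-5′ oligoadenylate synthetases, which make a second messenger that activates RNase L, and to nucleic acid sensing. Oas3 rose by 1.38 (SE 0.13), Oas2 by 1.04 (SE 0.12), Oas1a by 0.91 (SE 0.10) and Zbp1, a sensor of Z-form nucleic acid, by 0.79 (SE 0.10). Isg15, the ubiquitin-like modifier, rose from 24.0 to 39.1 CPM, and Rsad2, which encodes viperin, stood at 53.5 ± 7.44 and 70.2 CPM without passing (adjusted p in edgeR = 0.27).

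In neutrophils 0 of the same 30 genes rose and 0 fell in edgeR (0 higher and 1 lower at an unadjusted p below 0.05, where 5.74% of all genes were lower; 0 higher and 1 lower in DESeq2, where 0.82% were lower), with a median of 0.01 against −0.02 over all tested genes and 0.85 over the IFITM genes. The smallest p belonged to Cmpk2, a nucleotide kinase, at −0.88 (SE 0.24, adjusted p in edgeR = 0.226). Rsad2 had a log2 fold change of −0.83 (SE 0.46), Ifi35 of −0.24 (SE 0.13) and Trim30a, an inhibitor of NF-kB signaling, of 0.32 (SE 0.18). Without control replicate 1 the count was again 0 in both directions. The higher values of Ifitm1, Ifitm2 and Ifitm6 in CTT neutrophils thus stood beside stimulated genes with a median near that of all genes.

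**Figure D4:**
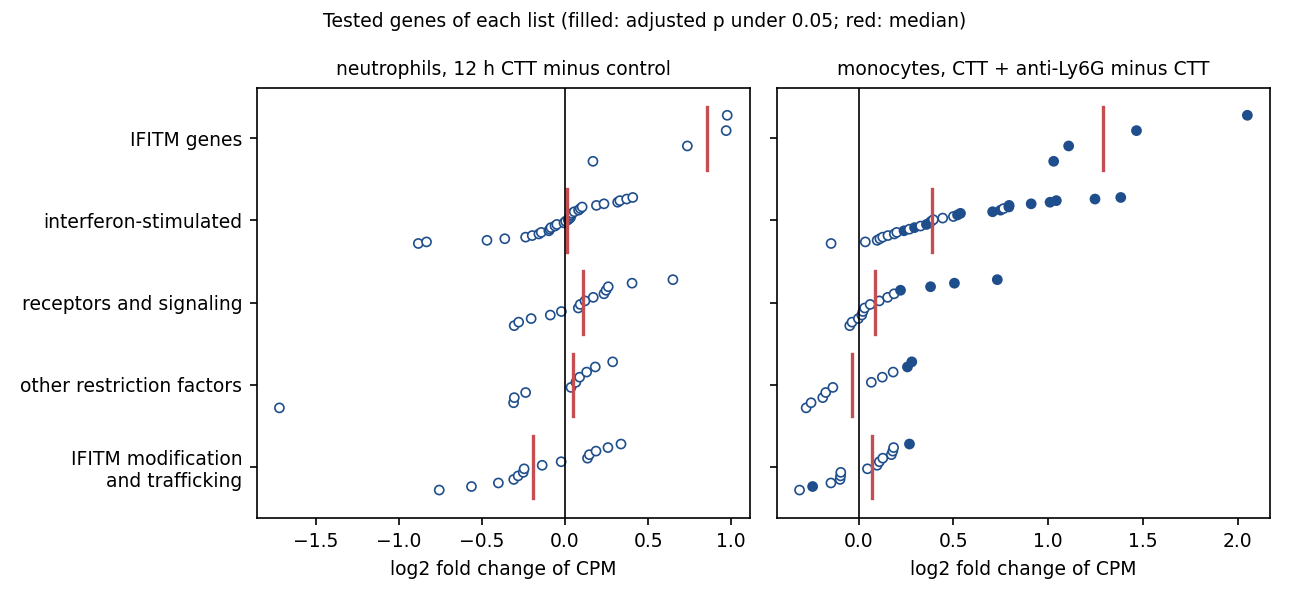
Log2 fold change of CPM (x axis) of every tested gene of 5 lists (rows), in neutrophils (left) and monocytes (right). Filled points passed an adjusted p of 0.05 and red lines are medians. The median of the IFITM genes is 0.85 and 1.29, and that of the interferon-stimulated genes is 0.01 and 0.39.

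Of 14 interferon receptor and signaling genes, 4 rose (10.2% of all tested genes did) and 0 fell in monocytes, with 0 lower at an unadjusted p below 0.05 and 0 lower in DESeq2. The 4 became 2 without CTT replicate 2 or 3, without anti-Ly6G replicate 2 or 3, and on log2 of FPKM plus 1 or 0.1. In those fits 706 to 929 genes rose over the whole table, against 1354. Usp18, which restrains type I interferon receptor signaling, rose by 0.73 (SE 0.12), Irf7, the factor that amplifies interferon production, by 0.51 (SE 0.13), Ifngr2, a chain of the interferon gamma receptor, by 0.38 (SE 0.06) and Irf9, a DNA-binding factor of interferon signaling, by 0.22 (SE 0.06). In neutrophils none of the 14 passed in edgeR (0 of 14), and DESeq2 called 0. At an unadjusted p below 0.05 in edgeR 4 were higher and 0 lower, against 8.28% and 5.74% of all tested genes. Jak2, a kinase of the interferon gamma receptor, had 0.40 (SE 0.13), Socs1, a feedback inhibitor of JAK kinases, 0.65 (SE 0.24), Ifngr1 0.26 (SE 0.11) and Ifnar2 0.23 (SE 0.10).

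Transcripts of the interferons themselves were scarce. Ifnb1 read 1.87 ± 0.529 CPM in control and 2.98 ± 3.94 CPM in CTT neutrophils (log2 fold change 0.67, SE 1.06, adjusted p = 0.767 in edgeR). It averaged 0.191 and 0.13 CPM in the monocyte groups and was not tested there. Ifng read 2.92 ± 1.17 and 6.49 ± 2.07 CPM in control and CTT neutrophils, without overlap (log2 fold change 1.15, SE 0.40, adjusted p = 0.325 in edgeR). In monocytes it averaged 0.818 and 0.542 CPM (log2 fold change −0.59, SE 0.50, adjusted p = 0.467 in edgeR).

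Restriction factors of other families were also listed. In monocytes 2 of 10 tested genes rose, against 10.2% of all tested genes. They were Samhd1, which depletes the nucleotides that retroviruses need, by 0.28 (SE 0.06) and the ubiquitin ligase gene Trim25 by 0.26 (SE 0.06), and 0 fell (1 lower at an unadjusted p below 0.05, 1 lower in DESeq2). The 2 became 0 without CTT replicate 3 or anti-Ly6G replicate 2, and 1 without anti-Ly6G replicate 1 or 3. In those fits 706 to 929 genes rose over the whole table, against 1354. Serinc3, which blocks retroviral infectivity, had −0.19 (SE 0.06, adjusted p in edgeR = 0.0599) and Bst2, tetherin, 0.18 (SE 0.07, adjusted p in edgeR = 0.0953). In neutrophils 0 of 10 passed, with 0 at an unadjusted p below 0.05 in edgeR and 0 in DESeq2. The smallest p belonged to Marchf8, a ubiquitin ligase that removes membrane proteins, at −1.72 (SE 0.76, adjusted p = 0.361 in edgeR), with a control mean of 64.6 ± 72.3 CPM.

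Genes whose products modify or move IFITM proteins were also listed. In monocytes 1 of 14 rose and 1 fell, near the 10.2% and 5.12% of all tested genes. Both counts became 0 without CTT replicate 3 or anti-Ly6G replicate 1 or 2. In those fits 706 to 870 genes rose over the whole table, against 1354, and 177 to 318 fell, against 681. Ap2s1, a subunit of the AP-2 adaptor that takes IFITM3 from the surface into endosomes, rose by 0.27 (SE 0.06), and Fyn, a kinase that phosphorylates IFITM3 in its sorting signal, fell by 0.24 on the log2 scale. Vapa, an IFITM3 binding partner in human cells, had 0.17 (SE 0.06, adjusted p in edgeR = 0.0779), and Vcp, an unfolding enzyme, 0.18 (SE 0.06, adjusted p in edgeR = 0.0832). In neutrophils 0 of 14 passed in edgeR, with 0 at an unadjusted p below 0.05, and DESeq2 called 0, with 2 lower at its unadjusted p. Without overlap between the groups 5 of the 14 were lower and 1 higher, against 11% and 13.6% of all tested genes. Ap2a1, another AP-2 subunit gene, had −0.76 (SE 0.34) and Abhd16a −0.56 (SE 0.26). The median log2 fold change of the 14 was −0.191 with all neutrophil libraries and −0.0372 without control replicate 1. Nedd4, the ubiquitin ligase that marks IFITM3 for turnover, had −0.40 (SE 0.19) in neutrophils and −0.31 (SE 0.12) in monocytes, neither past the threshold.

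Close relatives outside the 4 were scarce. Ifitm5, the bone-specific member, read 0.56 ± 0.291 and 1.33 CPM in the neutrophil groups and 0.817 ± 0.284 and 0.85 CPM in the monocyte groups. Ifitm10 read 2.25 and 3.01 CPM in neutrophils and 4.68 and 2.93 CPM in monocytes. None of the 6 tested genes of this wider CD225 family passed in either cell type in edgeR (0 of 6), and DESeq2 called 0 in both. At an unadjusted p below 0.05 in edgeR 2 were higher in neutrophils, against 8.28% of all tested genes, and 0 in monocytes. In neutrophils 3 of the 6 were higher without overlap, against 13.6%, with a median log2 fold change of 0.513. In monocytes the median was −0.207, and 0 were higher without overlap.

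The genes next to the cluster were compared in the same fits. Of the 10 nearest protein-coding neighbours, 5 on each side, 7 were tested in monocytes, with a median log2 fold change of −0.00 and a range of −0.26 to 0.43. Only Psmd13, a proteasome subunit gene that overlaps the predicted gene Gm15542, passed there (0.33, SE 0.06, adjusted p in edgeR = 0.00528). In neutrophils 8 neighbours were tested, with a median of −0.10, and 0 passed. The lowest was Nlrp6, an inflammasome sensor, at 1.45, 0.375 and 0.489 CPM in control and 0 to 0.0594 CPM in CTT libraries. Ptdss2, a phosphatidylserine synthase gene, read 123 CPM in control replicate 1 and 9.22 to 25.9 CPM in the other 5 neutrophil libraries. Ifitm5, at the edge of the cluster, had 1.24 (SE 0.51) in neutrophils and 0.06 (SE 0.47) in monocytes.

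**Figure D5:**
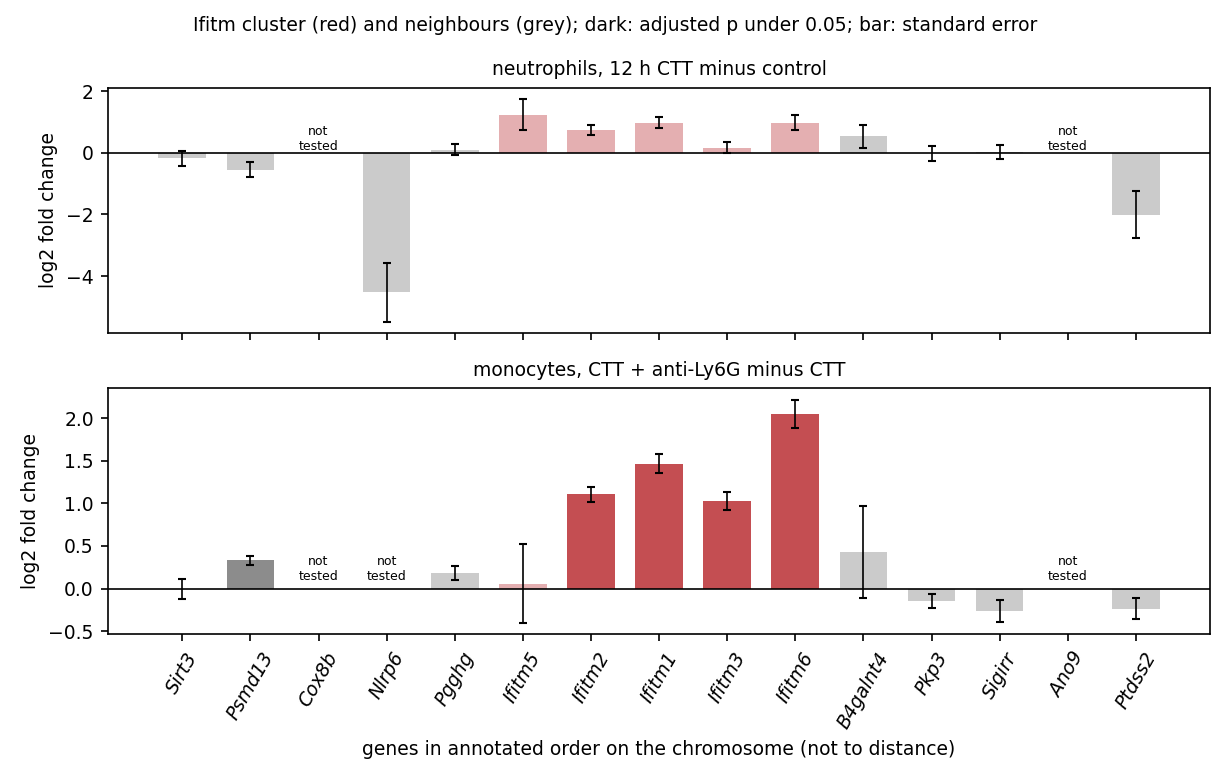
Log2 fold change of CPM with bars of 1 standard error (y axis) of the Ifitm cluster (red) and its protein-coding neighbours (grey) in annotated order (x axis), in neutrophils (top) and monocytes (bottom). Dark columns passed an adjusted p of 0.05. In monocytes the 4 IFITM genes stand at 1.03 to 2.05 and the tested neighbours at −0.26 to 0.43.

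Which genes followed the members most closely differed by cell type. Likeness was the Pearson r of log2 CPM over the 6 libraries of a table, among protein-coding genes of at least 10 CPM on average (9046 in neutrophils, 9331 in monocytes). These r values describe points that share libraries and a group difference, and so many candidates make high values common. In neutrophils Ifitm1 was nearest to Csf3r, the G-CSF receptor gene (r = 0.991), 1110032A03Rik (0.990) and Ugt1a7c (0.989), whose reads can be shared with other Ugt1a genes. Ifitm2 was nearest to the metalloproteinase gene Mmp19 (r = 0.995), the glycogen phosphorylase gene Pygl (0.991) and the haptoglobin gene Hp (0.990). Ifitm3 was nearest to the peroxiredoxin gene Prdx5 (r = 0.990), Abt1 (0.987) and Osbpl8 (0.980), and Ifitm6 to Bach1, a heme-regulated repressor (r = 0.999), Eepd1 (0.990) and the triglyceride synthesis gene Dgat2 (0.990). None of these 12 genes passed the neutrophil test, in which 0.567% of all tested genes were called.

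In monocytes Ifitm1 was nearest to 9830107B12Rik (r = 1.00), the retinoic acid receptor gene Rara (0.999) and Oas3 (0.997). Ifitm2 was nearest to the actin-binding supervillin gene Svil (r = 1.00), Eif4e3 (0.999) and Hopx (0.999), and Ifitm3 to the G protein gene Gnai2 (0.998), Ppp4r1 (0.998) and the annexin gene Anxa2 (0.998). Ifitm6 was nearest to Cpne3 (r = 0.999), the scramblase gene Plscr1 (0.999), which is itself induced by interferon, and the glutaredoxin gene Glrx (0.998). All but Ppp4r1 rose in the edgeR test (10.2% of all tested genes did), and Plscr1 by 1.03 on the log2 scale (SE 0.11). They were picked for following members that rose in these same libraries, so their calls are not separate support.

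Among themselves, the members ran together more closely in monocytes than in neutrophils. Over the 6 monocyte libraries r lay between 0.937 (Ifitm1 and Ifitm6) and 0.994 (Ifitm2 and Ifitm3). Over the 6 neutrophil libraries Ifitm1 and Ifitm2 had r = 0.948 and Ifitm2 and Ifitm6 had 0.925, while Ifitm3 had 0.404 with Ifitm1, 0.453 with Ifitm2 and 0.573 with Ifitm6. These are descriptions over 6 libraries in 2 groups, so each r also carries the change of both genes between the groups. The difference between cell types was not tested.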

How the data were processed

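Total RNA of selected spleen cells was sequenced in 12 libraries, grouped by the sample titles. For each cell type the authors deposited 1 table of raw counts and 1 table of FPKM values per gene. The submitters' processing notes name HISAT2, HTSeq and the build mm10, and the sources used here give no versions, annotation or strand setting.

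Deposited counts were fitted per table in R 4.3.3 with edgeR 4.0.16: filterByExpr, TMM scaling and the two-sided quasi-likelihood F test, adjusted by Benjamini-Hochberg across every gene tested, with calls at 0.05. The SE is the absolute log2 fold change over the square root of F. CPM are TMM-scaled. Ratios and shares used FPKM. Alternatives used DESeq2 1.42.0, limma 3.58.1, other scalings, filters and libraries left out. The edgeR, DESeq2 and limma-voom fits were also run on counts simulated without an outlying library. The outcome is not given here and is not used as support.

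Members and lists were chosen with earlier results of these data known. Named are all members, up to 4 genes of smallest p per list (others, among them Isg15 and Rsad2 in monocytes, were added after their values were seen), the 3 likest genes per member and the cluster's neighbours. Mx1, Mx2 and Ifitm7 were not analysed here. Intervals reflect the spread between libraries, and with at least 30942849 reads per library counting error is small for the members.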

Additional observations from a re-analysis of the deposited data

How the results depend on the processing

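In monocytes all 4 IFITM genes kept their direction and stayed past the threshold under all 16 alternatives, with log2 fold changes of 1.32 to 1.54 for Ifitm1, 1.03 to 1.18 for Ifitm2, 0.93 to 1.16 for Ifitm3 and 1.89 to 2.25 for Ifitm6, the extremes coming from libraries left out. In neutrophils Ifitm1, Ifitm2 and Ifitm6 passed with DESeq2 (0.96, 0.73 and 0.97), and Ifitm1 and Ifitm2 passed without control replicate 1. With each library left out in turn, the log2 fold change ranged from 0.88 to 1.17 for Ifitm1, 0.61 to 0.83 for Ifitm2, −0.0183 to 0.35 for Ifitm3 and 0.70 to 1.13 for Ifitm6. Ifitm3 changed sign once, to −0.0183 without CTT replicate 3. The cause was not tested.

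The count of genes that rose in neutrophils, 74, became 455 with DESeq2, 8 and 26 on log2 of FPKM plus 1 or 0.1, and 49 with a mean of at least 1 FPKM, and 0 to 257 with a library left out, 257 being without control replicate 1 and 0 without any other. Those that fell, 0, became 107, 0, 1 and 1, and 0 to 31. In monocytes 1354 rose, against 883 on FPKM plus 1 and 706 to 1687 with a library left out (706, 875, 761 and 870 without CTT replicates 3 and 2 and anti-Ly6G replicates 1 and 2). There 681 fell, against 1204 with DESeq2, 322 and 362 on FPKM plus 1 or 0.1, and 177 to 1168 with a library left out (177 without anti-Ly6G replicate 1).

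A replicate block gave 4 genes up and 1 down in neutrophils, and 1551 up and 1043 down in monocytes. Ifitm1 then had 0.99 in neutrophils (edgeR adjusted p = 0.0735), and no IFITM call changed. The labels do not say that a number marks shared mice or days, and same-numbered libraries did not all deviate together (r = 0.248, 0.000146 and 0.234 in neutrophils, 0.167, −0.0558 and 0.222 in monocytes), so the pairing is not established, and not every library correlated best with its own number.

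For 4 gene lists in neutrophils, counts with DESeq2 and without control replicate 1 were alternatives chosen after seeing the data. Of the interferon-stimulated genes 0 rose in both, and 0 fell without that library against 1 with DESeq2. The other 3 lists gave 0 in both directions. Chosen likewise were the alternatives for counts of listed genes in monocytes and of neutrophil markers, whose values stand beside those counts.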
